A study of Bos taurus with 22 samples.

Results

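The macrophage marker genes were 10 genes used across tissues to recognise macrophages: CD68, CD14, CD163, MRC1, CSF1R, AIF1, TYROBP, C1QA, C1QB and C1QC. They were chosen by name, and every probe set whose only gene symbol in the annotation of the array was one of these was taken. Of the 10 genes, 8 had such a probe set. These 8 genes had 9 probe sets, 2 of them for CD14, and all 9 were among the 14410 probe sets (6984 named genes) kept by a filter on dim signals out of 24016 bovine probe sets. CD163, a scavenger receptor for haemoglobin bound to haptoglobin, and MRC1, the macrophage mannose receptor, had no probe set under this rule and were not analysed here.

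The arrays measured transcripts in subcutaneous white adipose tissue, taken dorsally near the ischium from 11 Holstein heifers around their first calving. Each heifer was sampled at day -30 (prepartum) and day 14 (postpartum) relative to calving, which gave 11 arrays in each group and 1 pair of arrays for each cow. The animals were 24 to 28 months old, came from 1 farm and received no dietary treatment. Before calving they were fed alfalfa haylage, orchardgrass hay and a concentrate without restriction, and the ration after calving is not given in full in the sources used here. The comparison asked how transcripts in this depot differed between late pregnancy and early lactation, and physiological state, ration and time of sampling cannot be told apart in it.

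Macrophages live in adipose tissue among the adipocytes, where they take up lipid and the remains of dying cells and answer to microbial products. They depend on the growth factor CSF1, carry receptors that signal through small adaptor proteins, and are a main tissue source of complement C1q. White adipose tissue in early lactation releases fatty acids from its stores while milk production draws on them. In RNA from whole tissue, a change in the number of macrophages and a change in RNA per macrophage cannot be told apart.

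Of 15 listed adipocyte markers, 12 passed the filter on dim signals, and 13 of 17 skeletal muscle markers did so too. Measured against its level across arrays, the median muscle marker was raised by 8.03 log2 units in cow 384 after calving, 7.42 in the prepartum array labelled cow 387, 3.73 in cow 386 after calving and 2.66 in cow 384 before it. In the other arrays it lay between -0.43 and 0.65. Arrays of 1 cow deviated together from the group means for 10 cows (r 0.18 to 0.43) but not for the pair labelled cow 387 (r = -0.09), whose pairing is in doubt. The mean change of each marker gene is therefore given with and without cow 387, as are the means of the array set that holds it. The r of each pair was taken over all kept probe sets, muscle genes among them, and was not computed without muscle genes. In cow 387 the median muscle marker went from 7.42 prepartum to -0.13 postpartum. The part of muscle RNA in the low r of that pair was not tested. The sample titles end in 1 of 2 codes of unstated meaning. Cows with the first code are called array set 1 here (n = 5) and those with the second array set 2 (n = 6), and both arrays of a cow carry the same code. Over all genes, 259 of 6984 passed limma's test at an adjusted p under 0.05, 108 higher and 151 lower postpartum.

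None of the 8 macrophage marker genes passed that test, against 3.71% of all genes. At an unadjusted p under 0.05, C1QB and C1QC were found, 2 of 8 genes, against 20.8% of all genes. The mean change was above 0 for 8 of 8 marker genes, against 52.6% of all genes. Their median change was 0.41 log2 units postpartum minus prepartum, beside 0.01 over all genes. The marker genes varied together across cows, as shown further on, so their common direction is not 8 separate observations. For every marker gene the prepartum and postpartum signals overlapped, and the postpartum array of cow 387 had the highest signal of all 22 arrays.

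**Figure D1:**
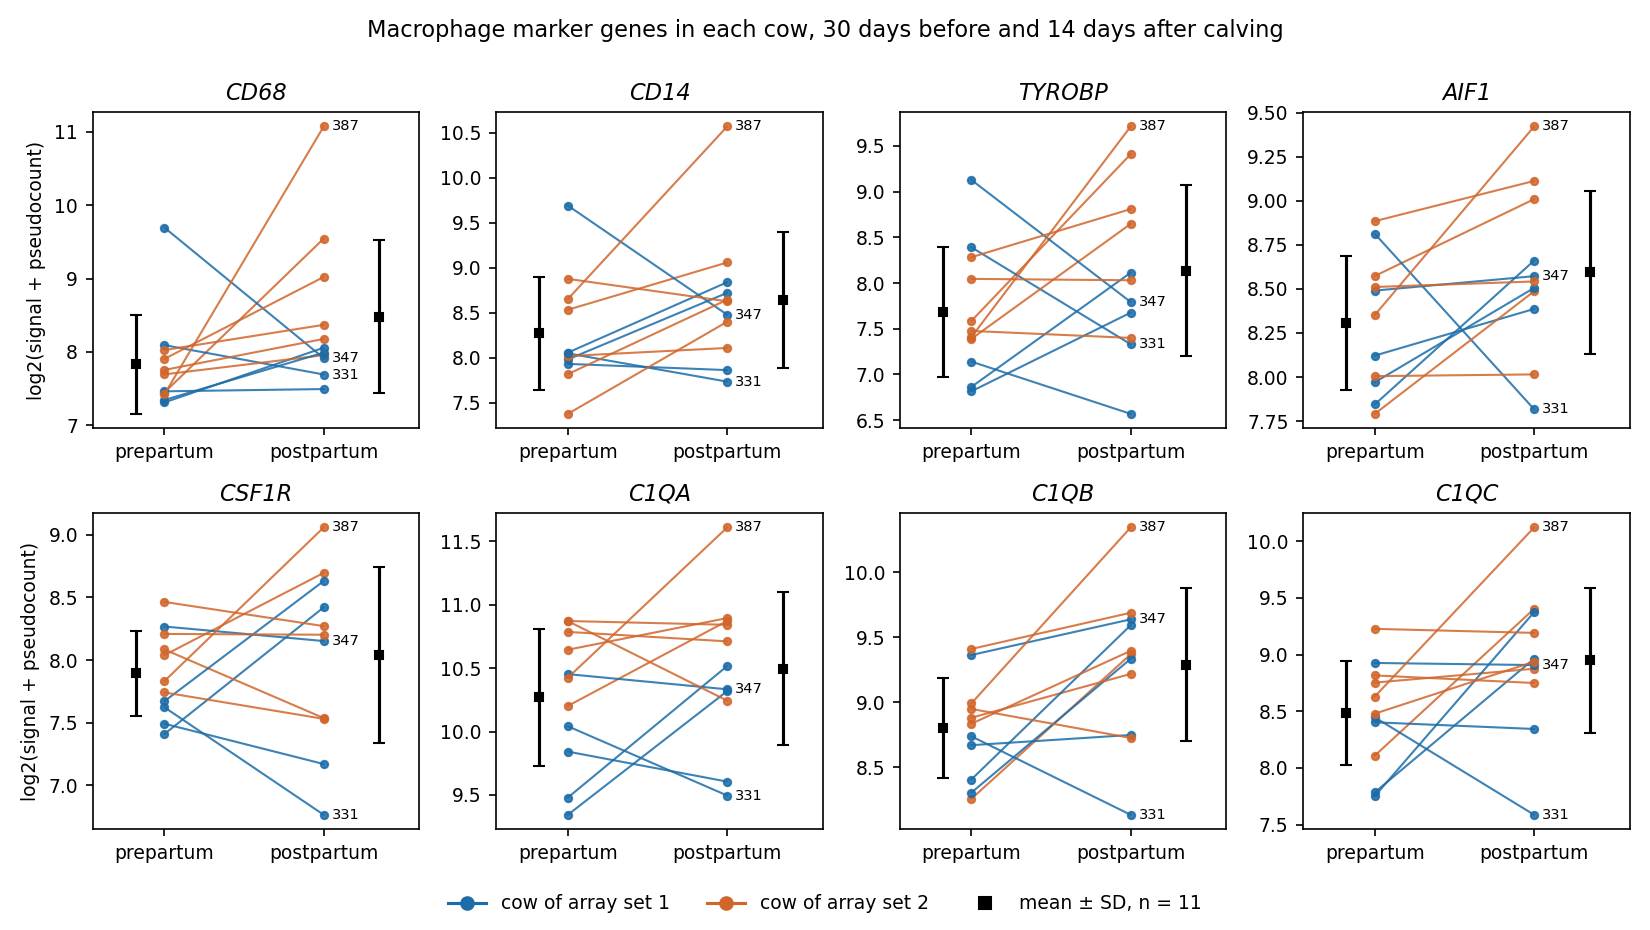
Level of each of the 8 measured macrophage marker genes as log2(signal + 7.78), with a line from the prepartum to the postpartum array of each of 11 cows. Blue lines are cows of array set 1, orange lines cows of array set 2, and black squares with bars are group means ± SD. The lines cross in every panel, cow 387 ends highest in all 8, and cow 331 falls in all 8.

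C1QA, C1QB and C1QC encode the A, B and C chains of C1q, the recognition protein that starts the classical complement pathway and tags dying cells for uptake. In RefSeq's annotation of ARS-UCD2.0 they neighbour each other on chromosome 2, in the order C1QB, LOC112443416, C1QC and C1QA. The C1QB signal was 298 to 672 prepartum (median 448) and 273 to 1291 postpartum (median 653). It was higher postpartum in 9 of 11 cows, and 4 postpartum arrays stood above the highest prepartum array while 1 stood below the lowest. The mean log2 change of C1QB was 0.49 (SD 0.62, n = 11 cows, 95% interval 0.14 to 0.84), or 1.40-fold, with limma p = 0.00998 and adjusted p = 0.116. An exact two-sided sign-flip test over the 11 cows gave p = 0.0283 for C1QB, with an adjusted p of 0.187. C1QB had the smallest adjusted p of the marker genes, and without cow 387 its change was 0.40.

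The C1QC signal was 208 to 591 prepartum (median 349) and 184 to 1106 postpartum (median 483). Only 6 of 11 cows were higher, with changes of up to 1.62 log2 units in cow 360. Over cows it changed by a mean of 0.47 (SD 0.81, n = 11 cows, 95% interval 0.02 to 0.91), with limma p = 0.0419 and adjusted p = 0.232. By the exact sign-flip test, C1QC had p = 0.0820 and an adjusted p of 0.322. Without cow 387 its mean change was 0.36.

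The C1QA signal was 642 to 1865 prepartum (median 1366) and 714 to 3114 postpartum (median 1457). It was higher in 5 of 11 cows, with a mean log2 change of 0.23 (SD 0.64, n = 11 cows, 95% interval -0.14 to 0.59, adjusted p = 0.503). C1QA and C1QB had their 4 highest changes in the same cows (330, 341, 360 and 387). Without cow 387 the mean change of C1QA was 0.13, and without cow 360 it was 0.14.

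CSF1R is the receptor for CSF1 and IL34, the growth factors on which macrophages depend. Its signal was 162 to 345 prepartum (median 220) and 101 to 525 postpartum (median 287). The postpartum arrays spread beyond the prepartum arrays on both sides, 3 above the highest and 2 below the lowest. The mean log2 change was 0.15 (SD 0.70, n = 11 cows, 95% interval -0.25 to 0.54, adjusted p = 0.708), with 4 cows higher and 7 lower. It was the smallest mean change among the marker genes. That mean was 0.04 without cow 387, 0.06 without cow 341 or cow 360, 0.09 without cow 330 and 0.25 without cow 331.

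CD14 is the surface protein that hands bacterial lipopolysaccharide to Toll-like receptor 4. It had 2 probe sets, and that with the higher mean is used for the gene. Its signal was 158 to 819 prepartum (median 257) and 205 to 1514 postpartum (median 388). CD14 changed by a mean of 0.37 log2 units (SD 0.84, n = 11 cows, 95% interval -0.09 to 0.83, adjusted p = 0.367), with 7 cows higher. The dimmer CD14 probe set changed by 0.38 (SD 0.83, n = 11 cows, adjusted p = 0.352). The changes in the 2 CD14 probe sets had a Pearson r of 0.97 over the 11 cows and the same sign in 10 of them, all but cow 346. Without cow 387, the mean change of CD14 was 0.21.

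TYROBP, also called DAP12, is the adaptor through which TREM2 and related receptors of myeloid and natural killer cells signal. Its signal was 105 to 552 prepartum (median 170) and 87.1 to 831 postpartum (median 254). TYROBP changed by a mean of 0.45 log2 units (SD 1.18, n = 11 cows, 95% interval -0.19 to 1.09, adjusted p = 0.437), with 6 cows higher and 5 lower. Its spread over cows was larger than that of 98.3% of the kept probe sets. Without cow 387, its mean change was 0.27.

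AIF1, or IBA1, is an actin-binding protein of macrophages and microglia. Its signal was 214 to 465 prepartum (median 319) and 218 to 678 postpartum (median 365). AIF1 was higher in 10 of 11 cows, the most of any marker gene, and the exception was cow 331 (-0.995 log2 units). Its mean change was 0.29 (SD 0.55, n = 11 cows, 95% interval -0.03 to 0.60, limma p = 0.0692, adjusted p = 0.296). The mean change of AIF1 was 0.42 without cow 331 and 0.21 without cow 387. With single cows left out its limma adjusted p ran from 0.0623 to 0.454. The lowest came from leaving out cow 331, the only cow in which AIF1 fell.

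CD68 is a glycoprotein of the lysosomes and endosomes of phagocytes. It had the largest mean change, 0.65 log2 units or 1.57-fold, and also the largest spread over cows (SD 1.38, n = 11 cows), above that of 99.0% of the kept probe sets. Its signal was 151 to 821 prepartum (median 199) and 173 to 2145 postpartum (median 259), and 9 of 11 cows were higher. The extremes were 2 cows: in cow 387 CD68 went from 164 to 2145, and in cow 347 it went from 821 to 234. The 95% interval of the mean change was -0.10 to 1.40 (adjusted p = 0.325). Without cow 387 the mean change of CD68 was 0.35, and without cow 347 it was 0.89.

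Read by cow, the marker genes did not move in a common direction. All 8 genes were higher postpartum in 4 cows (330, 341, 360 and 387), with median changes of 0.89, 0.99, 0.91 and 1.42 log2 units. All 8 were lower in cow 331, with a median of -0.73. In cow 382, 7 of 8 were higher (median 0.40), and in cow 346, 6 of 8 were (median 0.19). The other 4 cows lay near 0, with medians of -0.06 in cow 338, -0.12 in cow 347, -0.07 in cow 384 and -0.02 in cow 386. The median over the 8 genes was thus above 0 in 6 cows and below 0 in 5. Over all kept genes, the median change in a cow ran from -0.14 (cow 384) to 0.06. The arrays share the same trimmed mean signal, which tends to hold this median near 0. It is therefore no measure of how unusual the marker changes were.

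**Figure D2:**
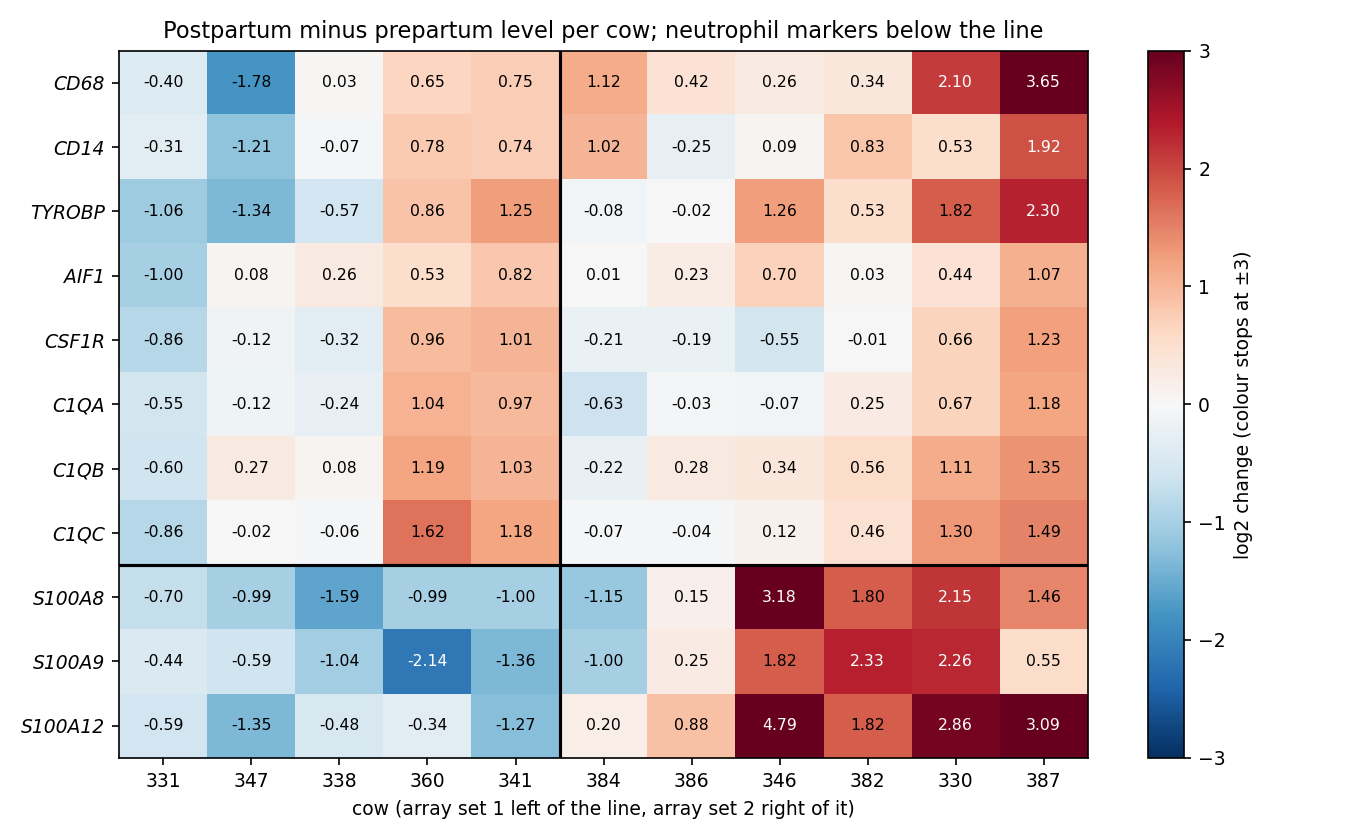
Change of each marker gene (rows) in each cow (columns) as log2 units, postpartum minus prepartum, with red for higher and blue for lower and the value printed in each cell. Cows left of the vertical line are array set 1 and those right of it array set 2, and the 3 rows under the horizontal line are neutrophil markers. Cow 331 is blue for all 8 marker genes, cows 330, 341, 360 and 387 are red for all 8, and S100A8 is blue in all 5 cows of set 1.

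The changes of the 3 C1q chains and CSF1R were the most alike. Their 6 pairs had a Pearson r of 0.93 to 0.97 over the 11 cows, and 0.93 to 0.98 without cows 384 and 387. CD68 had r of 0.88 with CD14 and 0.85 with TYROBP, and 0.57 to 0.65 with the other 5 genes. Without the 2 cows with the most extreme CD68 change these were 0.57 for CD14 and 0.70 for TYROBP. TYROBP had r of 0.78 to 0.82 with the C1q chains, close to its r of 0.77 with CD14. The order of these values depended on the cows left out. Without the 2 cows farthest from the median of the gene named first, r was 0.49 for CD14 with TYROBP. For TYROBP it was then 0.85 with C1QB, 0.81 with C1QC and 0.75 with C1QA. Without cows 384 and 387, r was 0.80 for CD14 with TYROBP. For TYROBP it was then 0.78 with C1QB, 0.77 with C1QC and 0.74 with C1QA. All 28 pairs of marker genes ranged from 0.52 to 0.97. The genes share arrays and the groupings were drawn after the correlations were seen, so these values are a description.

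In single cows the marker genes diverged, though not along the same lines. In cow 347 CD68 changed by -1.78 log2 units, TYROBP by -1.34 and CD14 by -1.21, while C1QA changed by -0.12, C1QC by -0.02, CSF1R by -0.12 and C1QB by 0.27. In cow 384, whose postpartum array held the most muscle RNA, CD68 changed by 1.12 and CD14 by 1.02, whereas TYROBP changed by -0.08, C1QC by -0.07, CSF1R by -0.21, C1QB by -0.22 and C1QA by -0.63. In cow 346 TYROBP stood apart at 1.26, while CD68 (0.26) and CD14 (0.09) lay among C1QB (0.34), C1QC (0.12) and C1QA (-0.07), and CSF1R was lowest at -0.55. TYROBP thus lay with CD68 and CD14 in cow 347 but with neither in cows 384 and 346.

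Between the array sets, CD68, TYROBP and CD14 had the largest differences of mean change, and none of these passed the test. For CD68 the mean log2 change was -0.15 in set 1 (SD 1.02, n = 5 cows, 3 higher) and 1.32 in set 2 (SD 1.34, n = 6 cows, 6 higher). The difference of 1.47 (SE 0.61, 95% interval 0.15 to 2.78) had an unadjusted limma p of 0.0312 and an adjusted p of 0.997. An exact permutation of the cows between the sets gave p = 0.0714 for CD68, where the smallest possible p is 0.00216. For TYROBP the means were -0.17 and 0.97 (difference 1.14, SE 0.54, adjusted p = 0.997, exact permutation p = 0.106), and for CD14 they were -0.01 and 0.69 (difference 0.70, SE 0.41, adjusted p = 0.997). Without cow 387 the set 2 means were 0.85 for CD68 (SD 0.78, n = 5 cows, 5 higher), 0.70 for TYROBP and 0.44 for CD14, and the difference for CD68 had a limma adjusted p of 0.949. None of the 8 marker genes passed the test of the difference, as for 0% of all genes. CD68 was the 1 marker gene at an unadjusted p under 0.05 with all cows, against 3.01% of all genes, and without cow 387 its unadjusted limma p was 0.0535.

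With all cows, the means of the C1q chains and CSF1R lay closer in the sets. CSF1R changed by 0.13 in set 1 and 0.15 in set 2, C1QA by 0.22 and 0.23, C1QB by 0.39 and 0.57, and C1QC by 0.37 and 0.54. The 95% interval of the difference for C1QB, -0.56 to 0.91 log2 units, still allows a sizeable one in either direction. AIF1 changed by 0.14 in set 1 and 0.41 in set 2. The close means of CSF1R and C1QA rested on cow 387: without it, set 2 had -0.0601 for CSF1R and 0.0375 for C1QA, below set 1. Those of the other genes were then 0.41 for C1QB, 0.35 for C1QC and 0.28 for AIF1.

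**Figure D3:**
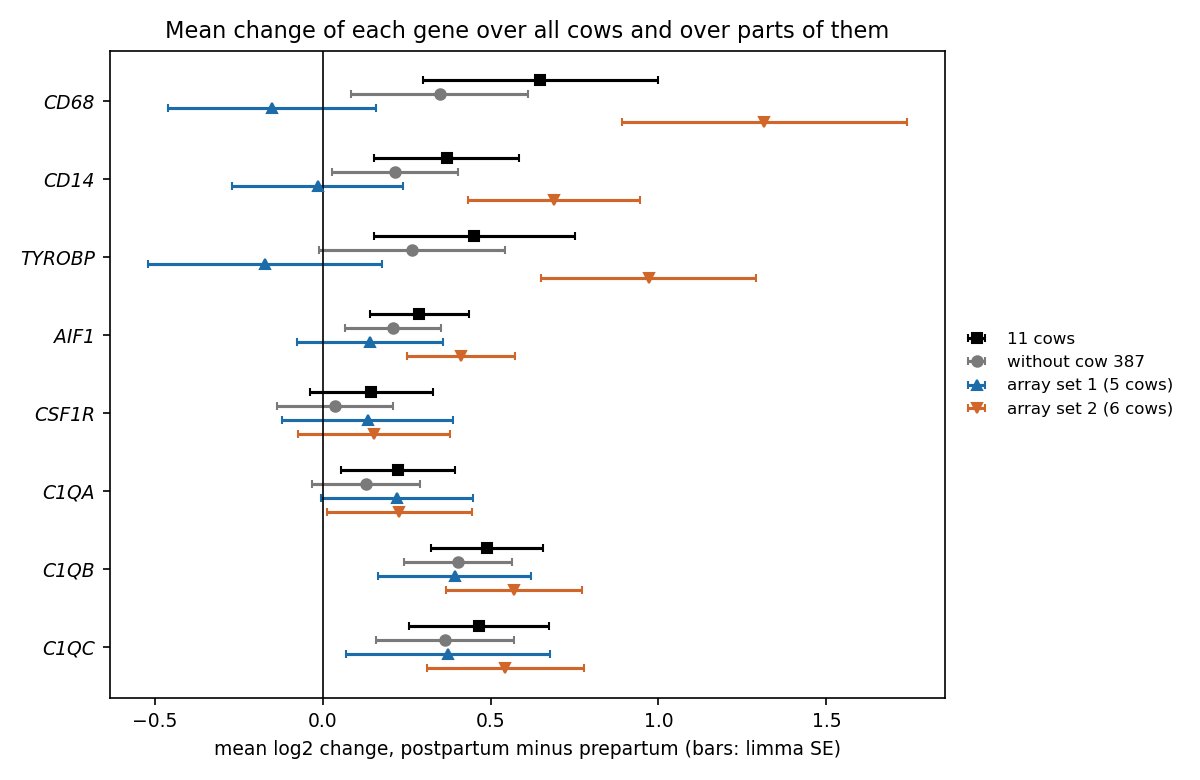
Mean log2 change of each marker gene, postpartum minus prepartum, with bars for limma's standard error, over 11 cows (black squares), without cow 387 (grey circles), in array set 1 (blue upward triangles, 5 cows) and in array set 2 (orange downward triangles, 6 cows). CD68, CD14 and TYROBP lie below 0 in set 1 and between 0.69 and 1.32 in set 2, while the set means of CSF1R and C1QA, with cow 387 included, lie close together.

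Neutrophils also express TYROBP and CD14, and the change of their markers had opposite signs in the means of the array sets. Of 11 listed neutrophil markers, 8 were on the array and 3 passed the filter: the calcium-binding alarmins S100A8, S100A9 and S100A12. S100A8 was lower postpartum in 5 of 5 cows of set 1 and higher in 5 of 6 cows of set 2, with mean log2 changes of -1.06 and 1.27. The difference between sets did not pass for S100A8 (2.32, SE 0.59), S100A9 (2.15, SE 0.55) or S100A12 (3.07, SE 0.64), each with a limma adjusted p of 0.997 and an unadjusted p of 0.00160, 0.00180 and 0.000325 in that order. The median neutrophil marker ranged from -1.06 to 1.98 log2 units around its level across arrays prepartum and from -1.98 to 3.30 postpartum. It was higher postpartum in 0 of 5 cows of set 1 and 5 of 6 of set 2. Among prepartum arrays it was highest in those of cows 341 (1.98), 382 and 331. The prepartum arrays of these cows and of cow 330 held raised KRT10, an epidermal keratin. Of 10 listed epidermis markers, 2 were kept, KRT10 and KRT5. KRT5 had a mean change of -0.02 log2 units (5 cows higher, 6 lower), against -1.77 for KRT10 (1 higher, 10 lower). KRT10 alone therefore does not establish epidermis in these arrays. In cow 330 the prepartum level of the neutrophil markers was below 0. In set 1 this level also fell in cows 338, 347 and 360, whose KRT10 was not raised. The mean change of the 3 neutrophil markers had a Pearson r of 0.60 with the change of TYROBP over the 11 cows. It was 0.43 with CD68, and -0.01 to 0.30 with the other marker genes. By ranks, Spearman's rho was 0.43 for TYROBP, 0.14 for CD68, 0.09 for CD14 and -0.19 to 0.14 for the rest. With the 2 farthest cows left out, Pearson r was 0.46 for TYROBP, 0.52 for CD68, 0.47 for CD14 and 0.14 to 0.26 for the rest. The part of neutrophils or of epidermis in these changes was not tested. With the neutrophil level as a covariate, chosen after the values were seen, the mean change was 0.51 for CD68, 0.29 for TYROBP and 0.45 for C1QB, and no marker gene passed.

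Other genes of macrophage pathways were examined in 9 lists beside the markers. In the list of CSF1R ligands, related cytokine receptors and macrophage transcription factors, 4 genes were kept (CSF1, CSF2RB, IRF8 and CEBPB) and none passed. CSF1 itself changed by 0.14 log2 units (SE 0.13, adjusted p = 0.595), and IRF8, a factor of monocyte development, by -0.27 (SE 0.18, adjusted p = 0.454). In the list built around TYROBP, no receptor that pairs with it was kept, and 0 of the 4 kept genes passed (the adaptor FCER1G, the kinases LYN and BTK, and VAV1). VAV1, an exchange factor downstream of immune receptors, changed by 0.39 (adjusted p = 0.290), and FCER1G, the related adaptor of Fc receptors, by 0.30 (adjusted p = 0.478).

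Of 7 genes that sense lipopolysaccharide with CD14, none passed. The smallest p-values belonged to the kinases IRAK4 (log2 change -0.36, SE 0.12, adjusted p = 0.125, 9 of 11 cows lower) and IRAK1 (-0.22, SE 0.09, adjusted p = 0.175, 10 of 11 lower). CD14 itself had a positive mean change. Of 8 genes of the classical complement steps after C1q, none passed and the median change was 0.08. C4A, a complement component cleaved in this pathway, changed by 0.59 (SE 0.24, adjusted p = 0.185), and C1R, the protease that C1q activates, changed by 0.22 (SE 0.10, adjusted p = 0.249).

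Uptake receptors and lysosomal genes had positive median changes, and none passed by its brightest probe set. Of 9 kept scavenger, lectin and Fc receptors, 6 had a positive change (median 0.28). FCGR3A, a low-affinity receptor for IgG that natural killer cells also carry, changed by 0.47 (SE 0.13, adjusted p = 0.0582, 10 of 11 cows higher), and FOLR2, the folate receptor of tissue macrophages, by 0.70 (SE 0.24, adjusted p = 0.118). Of 13 kept lysosomal genes, 12 had a positive change (median 0.14). GPNMB, a membrane glycoprotein of lipid-laden phagocytes, changed by 0.86 (SE 0.24, adjusted p = 0.0621, 10 of 11 higher). Its other 2 probe sets passed, with 0.94 (adjusted p = 0.0102) and 0.82 (adjusted p = 0.0233), and without cows 384 and 387 that with the highest mean passed too (1.10, adjusted p = 0.0023). ACP5, the tartrate-resistant acid phosphatase, changed by 0.70 (SE 0.22, adjusted p = 0.0895).

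Genes shared by most leukocytes had a median change of 0.45 over 13 kept genes, 12 of them positive, close to that of the macrophage markers, and none passed. LCP1, the actin bundler L-plastin, changed by 0.69 (SE 0.22, adjusted p = 0.0941), and NCF4, a subunit of the phagocyte NADPH oxidase, by 0.45 (SE 0.14, adjusted p = 0.0845). T and natural killer cell markers had a median change of 0.21 over 10 kept genes, B and plasma cell markers 0.38 over 3 and dendritic cell markers 0.34 over 2, and none of these passed. The part of these cells in the values of the marker genes was not tested.

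In the list of chemokines and receptors that draw monocytes, 1 of 6 kept genes passed. CCL8, a chemokine for monocytes, fell by 0.56 log2 units in the mean (SE 0.15, 10 of 11 cows lower, adjusted p = 0.0479). In the list of haptoglobin, haem and iron genes linked to CD163, 1 of 7 passed. BLVRB, a biliverdin reductase, rose by 0.56 (SE 0.14, adjusted p = 0.0493, 10 of 11 cows higher). Both stood just inside the threshold. CCL8 did not pass in 17 of 31 alternative settings (adjusted p 0.0112 to 0.408 over all of them), among them the omission of any single cow other than 384 or 387. BLVRB did not pass in 25 of 32 (0.0134 to 0.453), among them the omission of any single cow other than 338 or 384. Without cows 384 and 387 together its limma adjusted p was 0.0624. Both counts include settings in which few or no probe sets passed at all, such as array set 2 alone.

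**Figure D4:**
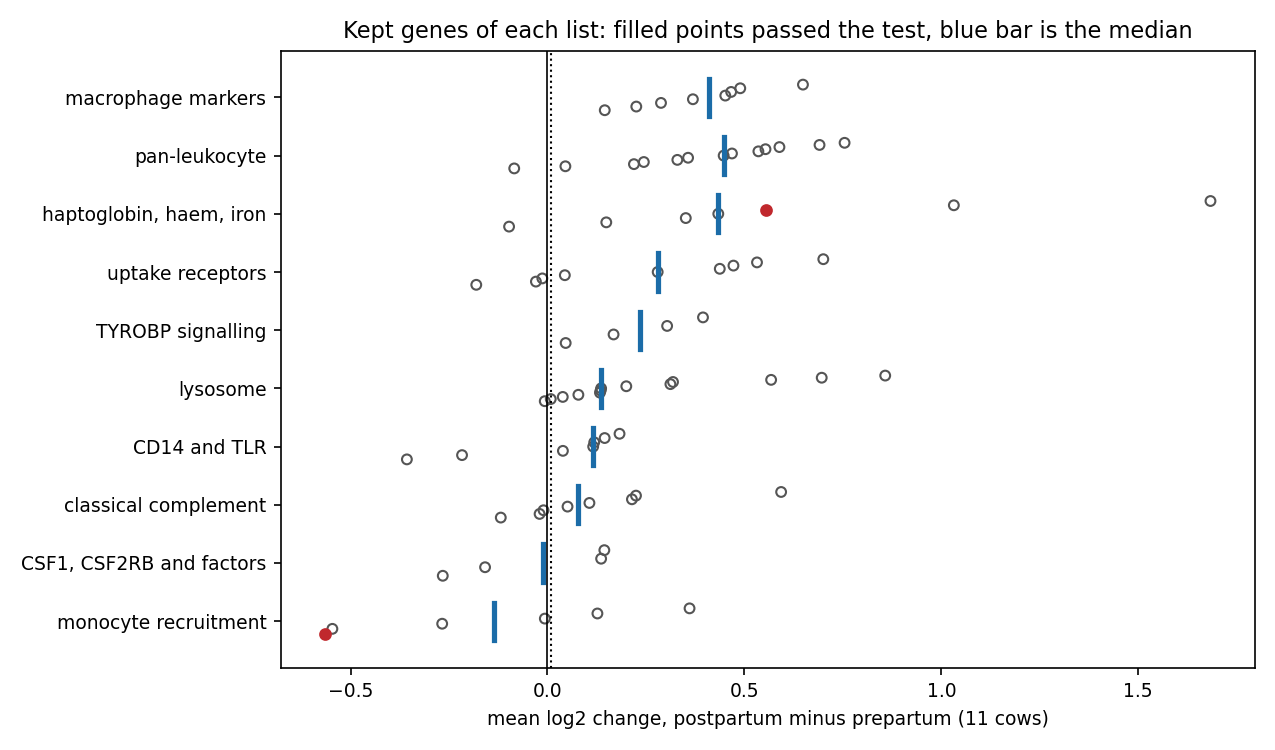
Mean log2 change over 11 cows of each kept gene (circles) in the macrophage marker list and 9 related lists, with the median of each list as a blue bar and the median of all genes (0.01) as a dotted line. Filled red circles passed limma's test: BLVRB in the list of haptoglobin, haem and iron genes and CCL8 in the list of monocyte recruitment. The medians run from 0.45 for genes shared by leukocytes to -0.14 for monocyte recruitment.

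Across the 22 arrays, which are pairs from 11 cows, the marker genes followed each other more closely than most genes did. Each was set against the mean standardised level of the other 7 and ranked by r among 6977 genes. C1QC ranked 1 (r = 0.91), C1QB 2 (0.88), CSF1R 7 (0.84), TYROBP 8 (0.83), CD14 13 (0.81), C1QA 14 (0.82), AIF1 20 (0.79) and CD68 21 (0.77). Without the arrays of cows 384 and 387, the ranks of CD68 and AIF1 were 41 and 40. CD68 and AIF1 were the loosest of the 8 by this measure.

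The 8 genes outside the list with the pattern most like the mean of the markers were found by the same measure. MPEG1, the pore-forming perforin-2 of phagocytes, had r = 0.89. FOLR2, the amino acid transporter SLC7A7 and the costimulatory ligand CD86 each had r = 0.87. FCGR1A, the high-affinity IgG receptor, had 0.85, the granulin precursor GRN 0.84, the haem oxygenase HMOX1 0.84 and the ribonuclease RNASET2 0.83. Without the arrays of cows 384 and 387, 5 of these 8 were again among the 8 highest. None of the 8 genes passed the test of the postpartum change, and their mean changes ran from 0.21 (MPEG1, adjusted p = 0.618) to 0.70 (FOLR2, adjusted p = 0.118).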

How the data were processed

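Each of 22 adipose RNA samples was measured on 1 Affymetrix bovine array. Per the submitters' processing notes, the authors used MAS5 to summarise probe sets. The MAS5 version, its settings and the genome build were not given in the sources used here. A table deposited by the authors holds intensities on a linear scale. The mean signal, with 2% trimmed at each end, was 125 on every array, and the median bovine signal ran from 39.9 to 47.4. Arrays give no read depth, and their number limits the precision. The 112 control probe sets were left out.

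Values were taken as log2(signal + 7.78), where the pseudocount is the median of the 20th percentiles of the arrays' signals. Folds refer to this scale, so those of dim genes are understated. Probe sets with a mean at or above the 40th percentile were kept, and the brightest kept probe set stood for its gene. Symbols came from the platform annotation, which gave 1 symbol to 13292 of the bovine probe sets, several to 86 and none to 10638. For 13263 the symbol was updated by its Entrez identifier from RefSeq's table for ARS-UCD2.0. Apart from the filter and the choice of the brightest probe set of a gene, no level was compared between probe sets.

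Changes were tested with limma 3.58.1 in R 4.3.3, with cow as a fixed block, an intensity trend and Benjamini-Hochberg adjustment over 14410 probe sets at 0.05. A gene or probe set that passed is called changed. The pairing comes from the cow number in the titles and the series design, which describes repeated sampling of the same animals. The difference between array sets was fitted as an interaction. The fits were tested on simulated data. The level of a marker list on an array is the median over its kept genes of the deviation from the median of each gene over arrays.

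The marker genes, the gene lists and the alternatives were chosen with earlier results of these data known. Genes outside the marker list were named by rule: in each list up to 3 that passed or, where none did, the 2 with the smallest p, the 8 with the most similar pattern, and genes a check was about. Figures used matplotlib 3.10.9 in Python 3.11.15.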

Additional observations from a re-analysis of the deposited data

How the results depend on the processing

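No macrophage marker gene passed under any of the alternatives run (pseudocount, filter, normalization, variance model, test, weights, block, covariates, array set and left-out cows). The lowest adjusted p was 0.0520, for C1QB without cow 331. Without the replicate block, that is without the pairing by cow, 0 marker genes and 338 of all probe sets passed, beside 494 with it, and 708 did with cow as a random effect. The count of marker genes at an unadjusted p under 0.05 was 0 in array set 1 alone, 6 in set 2 alone, 4 with a muscle covariate, and 1 to 5 with single cows left out. The share of all genes at that p was not computed under these settings, so the counts have no background beside them. The median change of the marker genes was 0.24 to 0.52 with single cows left out and 0.25 without cows 384 and 387. It was 0.28 with array weights and 0.30 with a neutrophil covariate, while all 8 changes stayed above 0 in each of these settings. In set 1 alone the changes of CD68 (-0.15), CD14 (-0.0148), TYROBP (-0.17), FCER1G (-0.0547), S100A12 (-0.80), S100A8 (-1.06) and MPEG1 (-0.11) were below 0, and the cause was not tested. S100A8 was also below 0 with the neutrophil covariate (-0.16), and with single cows left out it ran from -0.0857 (cow 346) to 0.391 (cow 338). CSF1 was below 0 in set 2 alone (-0.0255) and without cows 330, 331, 341 and 382 (-0.15), whose prepartum arrays held raised KRT10, an epidermal keratin (9.34 to 12.6 against at most 7.11). The difference between sets turned sign without cow 387, a setting chosen after the data were seen, for CSF1R (-0.20), C1QA (-0.18) and C1QC (-0.0182), without cows 384 and 387 for CSF1R (-0.16) and C1QA (-0.0181), and with quantile normalization for C1QA (-0.0330). All probe sets that passed numbered 242 (without cow 382) to 969 (without cow 384), 1070 without cows 384 and 387, 285 by the exact sign-flip test, 69 in set 1 alone, 0 in set 2 alone and 6 without cows 330, 331, 341 and 382. In the 9 related lists 2 genes passed with all cows, where 3.71% of all genes did. In these lists 0 to 7 genes passed with single cows left out and 5 without cows 384 and 387. With 11 cows and this spread, the 95% interval of C1QA or CSF1R still allows a mean rise of 0.59 or 0.54 log2 units.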

Other observations

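Some markers of other cell types in the same samples did pass the test, which 3.71% of all genes passed. Both kept mast cell markers fell in 11 of 11 cows: TPSB2, a mast cell tryptase, by 1.18 log2 units (SE 0.16, adjusted p = 0.00223) and KIT, the receptor for stem cell factor, by 0.91 (SE 0.15, adjusted p = 0.00555). Each kept its call in 29 of 32 alternatives. It was lost in array set 1 alone, in set 2 alone and without cows 330, 331, 341 and 382. In these settings 69, 0 and 6 of all probe sets passed, in that order, against 494 with all cows. Loss of a call there therefore says little about either gene. The last setting leaves out the cows whose prepartum arrays held raised KRT10, and the part of epidermis or skin in these falls was not tested. The fall of KIT in 11 of 11 cows is that of its brightest probe set. KIT's other 2 probe sets did not pass, at -0.47 (adjusted p = 0.0875, 9 of 11 cows lower) and -0.52 (adjusted p = 0.0846, 10 of 11 cows lower). Only 3 of 6 listed mast cell markers were on the array.

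Among 10 endothelial markers, 2 rose: VWF, the von Willebrand factor, by 0.66 (SE 0.10, adjusted p = 0.0039) and TEK, the angiopoietin receptor, by 0.61 (SE 0.12, adjusted p = 0.0130), each in 10 of 11 cows. Among 13 fibroblast and stromal progenitor markers, PI16, a marker of progenitors in the adipose stroma, rose by 1.44 (adjusted p = 0.0120) and MFAP5, a microfibril protein, fell by 0.45 (adjusted p = 0.0296). Among 12 adipocyte markers, 3 fell. LEP, the hormone leptin, fell by 1.78 (adjusted p = 0.0268), LPL, the lipoprotein lipase, fell by 1.18 (adjusted p = 0.0323) and GPD1, a glycerol phosphate dehydrogenase, fell by 0.93 (adjusted p = 0.0451). Of 32 alternatives, the call was lost in 4 for TEK, 5 for VWF, 5 for PI16, 10 for LEP, 11 for LPL, 14 for MFAP5 and 18 for GPD1, among them the omission of cow 330 or cow 341 for LEP, LPL, GPD1 and MFAP5. ADIPOQ, the adipokine adiponectin, and FABP4, a fatty acid carrier, had mean changes of 0.00 and 0.08. MFAP5 passed with a smaller mean change than that of CD68, and its SD over cows was 0.35, against 1.38 for CD68.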
